A study of Saccharomyces cerevisiae with 24 samples.

Results

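A set of 10 genes for glycoproteins of the yeast cell wall was followed across strains that differ in the RNA-binding protein Pho92: TIP1 (YBR067C), TIR1 (YER011W), TIR2 (YOR010C), TIR3 (YIL011W), TIR4 (YOR009W), DAN1 (YJR150C), PST1 (YDR055W), CWP1 (YKL096W), CWP2 (YKL096W-A) and SED1 (YDR077W). They were chosen by name, as cell wall mannoprotein genes, after TIP1 had been seen to be high in W177A against CUP1-PHO92 and PST1 to differ between the segment deletion Δ35–42 and pho92Δ. Those 2 comparisons are therefore given as values only. TIP1 has no test wherever W177A or CUP1-PHO92 libraries enter, and PST1 none wherever pho92Δ or Δ35–42 libraries enter. The 10 genes stand among 6157 features of the count table, and all 10 were among the 5698 that passed the filter on low counts.

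Polyadenylated RNA was sequenced from diploid budding yeast (MATa/alpha) starved in sporulation medium, which brings diploids into meiosis. There were 24 libraries in 8 groups of 3. In 5 groups the copper-inducible CUP1 promoter drove an HA-tagged mutant Pho92 from trp1 in cells whose own PHO92 was deleted: W177A, L38P, the deletion of residues 35 to 42 (Δ35–42), L35A and I39A. CUP1-PHO92 carried the unmutated protein in the same way, pho92Δ had PHO92 replaced by a hygromycin marker (HYG), and WT kept its own PHO92. All 8 groups share lys2 and ura3 mutations, LYS2 inserted in ho, and hisG insertions in leu2, his3 and trp1, and all cultures received 50 µM copper sulfate 3 h after they entered sporulation medium, so the copper is common to WT and pho92Δ too. For I39A the titles and the genotype label disagree, since the label has L39A. Header lines of the table give the W177A libraries the strain number of CUP1-PHO92 and a group name that contains "delete". The groups used here follow the sample titles. The labels number the replicates but do not say that they are separate cultures, so p-values measure the spread between these libraries, which may be technical.

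The yeast cell wall is a network of glucan and chitin covered by mannoproteins, most of which are attached through the remnant of a glycosylphosphatidylinositol (GPI) anchor. Which mannoproteins are made depends on growth phase, temperature, oxygen and stress. TIP1 and the TIR genes encode serine- and alanine-rich proteins of one family, known for induction by cold shock or by lack of oxygen, and DAN1 is a related gene switched on in anaerobic cells. CWP1 and CWP2 encode small wall mannoproteins of growing cells, SED1 the main mannoprotein of stationary cells, and PST1 a protein of the ECM33 family whose gene is induced by cell wall damage. Pho92 belongs to the YTH family of readers, which bind mRNA at methylated adenosines (m6A), and is made in meiosis. Cells that complete meiosis build a spore wall inside the mother cell.

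The kinship of the TIR genes shows in the first 50 bases of their coding sequences, printed here because it bears on how well reads of one can be told from reads of another. All are from the RefSeq assembly R64, a reference strain that the study's strains need not match base for base, and run 5′ to 3′ on the coding strand. Capitals mark bases that differ from TIR1 at the same position. TIR2 shares 46 of the 50 bases with TIR1, TIR4 shares 39, TIR3 32 and TIP1 22.
TIR1: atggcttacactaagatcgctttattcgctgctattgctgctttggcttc
TIR2: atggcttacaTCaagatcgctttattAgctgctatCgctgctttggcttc
TIR4: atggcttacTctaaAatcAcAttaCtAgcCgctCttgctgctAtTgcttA
TIR3: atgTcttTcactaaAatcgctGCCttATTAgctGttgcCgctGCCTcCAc
TIP1: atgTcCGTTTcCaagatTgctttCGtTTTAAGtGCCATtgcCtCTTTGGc
Over whole coding sequences, 1.77% of the 31-base words of TIR1 and 1.79% of those of TIR2 occur elsewhere in the genome, against 0% for the other 8 genes. No 100-base word of any of the 10 genes is repeated. None of the 10 overlaps another annotated gene. TIR4 (chrXV:344335-345798, plus strand) and TIR2 (chrXV:346195-346950, minus strand) are neighbours that face each other, and CWP2 (chrXI:259253-259531) lies next to CWP1 (chrXI:261132-261851) on the plus strand.

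The upstream sequences of CWP1, TIR2 and TIR4 are shown because they hold matches to motifs known from meiosis or anaerobic growth and because CWP1 and TIR2 changed between strains while TIR4 passed no test. Each runs from 250 bases before the start codon through the first 50 coding bases, so it includes the transcribed leader. Capitals mark exact matches on either strand. The letters CACAAA, the core of the middle sporulation element bound by the meiotic activator Ndt80, occur at -250 on the gene's strand and at -164 on the other strand of CWP1, counted from the start codon. They occur in none of the other 9 genes and in 18.8% of all 6001 windows. The letters TCGTTTA, the core of an anaerobic response element, occur on the other strand at -186 in TIR2 and -222 in TIR4, and in 5.48% of all windows.
CWP1 (chrXI:260882-261181, plus strand): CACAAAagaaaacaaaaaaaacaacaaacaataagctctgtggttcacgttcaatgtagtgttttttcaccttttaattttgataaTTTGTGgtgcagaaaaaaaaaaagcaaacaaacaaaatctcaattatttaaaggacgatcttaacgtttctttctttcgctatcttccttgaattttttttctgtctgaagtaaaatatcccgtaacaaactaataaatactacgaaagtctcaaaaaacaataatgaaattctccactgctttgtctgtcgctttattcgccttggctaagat
TIR2 (chrXV:346901-347200, minus strand): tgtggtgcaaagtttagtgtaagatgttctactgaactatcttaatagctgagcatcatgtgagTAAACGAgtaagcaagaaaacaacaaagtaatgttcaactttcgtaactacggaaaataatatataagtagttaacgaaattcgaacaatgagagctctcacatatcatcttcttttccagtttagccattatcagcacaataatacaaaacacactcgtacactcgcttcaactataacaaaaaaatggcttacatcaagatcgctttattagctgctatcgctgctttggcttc
TIR4 (chrXV:344085-344384, plus strand): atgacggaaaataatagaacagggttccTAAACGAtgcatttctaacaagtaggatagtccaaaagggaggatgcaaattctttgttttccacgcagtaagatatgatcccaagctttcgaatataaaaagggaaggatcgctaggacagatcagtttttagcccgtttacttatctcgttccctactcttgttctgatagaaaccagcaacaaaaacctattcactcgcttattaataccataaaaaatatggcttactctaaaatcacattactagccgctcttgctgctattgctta
Of the other strings searched on both strands, AGGGG (the stress response element) was in the window of SED1 and in 21.6% of all windows. The site type of the wall-stress factor Rlm1 was in that of DAN1 and in 5.57%. In DAN1 the match began at 4, counted from the start codon, so it lay inside the coding sequence and not upstream. GGCGGC (the core of the early meiotic element URS1) was in none of the 10 and in 5.13%. A match is a string of letters and not a shown binding site.

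Total counts ran from 16108079 to 36733806 per library. PHO92 itself had 1, 14 and 1 counts in the pho92Δ libraries. Its level was 7571 to 16420 CPM (counts scaled to the library's TMM-adjusted total) in the strains with the CUP1 promoter, and 804 to 924 CPM in WT. The summed level of 12 early meiotic markers ran from 8727 to 23850 CPM, with the 3 L38P libraries lowest (8727 to 12940 CPM), so transcripts of meiotic entry were present in every library. The level of 12 middle meiotic markers (NDT80 and genes known as its targets) spread from 156 to 12220 CPM, and replicate 2 of WT was the highest. Their summed level was 526 to 1951 CPM in W177A, 156 to 577 CPM in L38P and 782 to 1773 CPM in Δ35–42. L35A had 2618 to 9414 CPM of them and I39A 2645 to 4328 CPM. The range was 1304 to 4201 CPM in CUP1-PHO92, 619 to 951 CPM in pho92Δ and 2355 to 12220 CPM in WT. Of 8 haploid-specific markers 7 were in the table, and their summed level was 60.95 to 188.1 CPM, highest in replicate 2 of WT. MFA1 and MFA2, which encode a mating pheromone, lay between 0 and 0.707 CPM, while STE2, STE3, STE4, FUS3 and STE18 were detected. STE4, at 14.4 to 88.6 CPM, reached the highest value in any library but was not the highest in every group. Replicate 2 of L38P and replicate 1 of W177A form batch B of the table's header lines. Each is the only such library of its group, which leaves no comparison inside that batch.

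The 10 genes differed widely in level. They took 0.699% to 1.49% of all counts of a library, and SED1 alone supplied 77.8% to 86.4% of the counts of the 10. Per kilobase of coding length, the mean level over the 24 libraries was 8463 CPM for SED1 and 723 for TIP1, then 454 for CWP1, 432 for TIR3 and 373 for PST1. It was 183 for CWP2, 64.5 for TIR4, 45.1 for TIR1, 17.8 for TIR2 and 0.666 CPM per kilobase for DAN1. DAN1 had only 3 to 31 counts per library, where 3 counts, taken as the floor, correspond to 0.0828 to 0.179 CPM. The range over groups did not follow the level. The highest group mean was 16.8 times the lowest for CWP1, 3.56 times for TIP1, 2.94 for TIR1, 2.65 for TIR2, 2.59 for DAN1, 2.15 for PST1 and 2.04 for SED1. It was 1.58 times for TIR3, 1.42 for CWP2 and 1.25 for TIR4. Each library is RNA of a whole culture, so fewer cells of one kind and less RNA per cell cannot be told apart in any of these values.

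**Figure D1:**
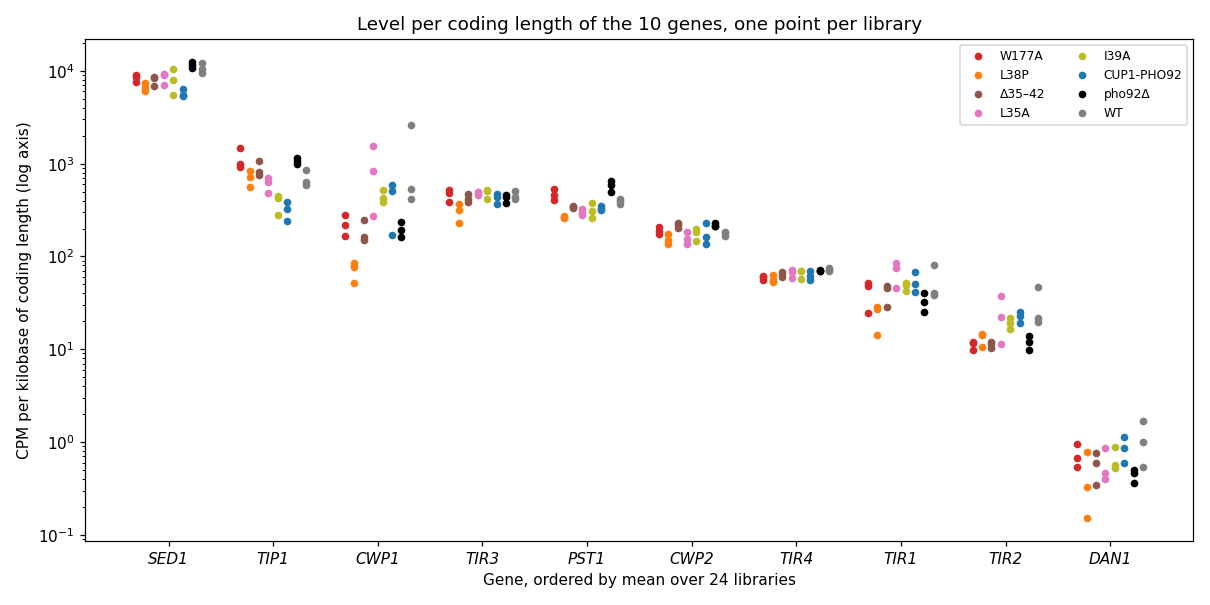
CPM per kilobase of coding length (log axis) of the 10 genes, one point per library, coloured by group and ordered by the mean over 24 libraries. SED1 lies above all others at a mean of 8463 CPM per kilobase, CWP1 has the widest spread, and DAN1 is near the floor.

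TIP1, whose product is a major wall mannoprotein, was highest in W177A and pho92Δ and lowest in CUP1-PHO92. The W177A libraries had 935, 580 and 626 CPM, against 242, 153 and 207 CPM in CUP1-PHO92. Each W177A library was higher than any CUP1-PHO92 library, and replicate 1 of W177A, a batch B library, was the highest of the 24. Because this comparison was used to choose the gene, its log2 fold change of 1.83 (SE 0.23) is a description. The other mutants lay between: 359, 459 and 530 CPM in L38P, 674, 513 and 480 CPM in Δ35–42, and 443, 404 and 305 CPM in L35A. I39A had 267, 287 and 179 CPM, a range that overlaps CUP1-PHO92. The log2 fold changes against CUP1-PHO92, also without a test, were 0.29 in I39A, 0.94 in L35A, 1.16 in L38P and 1.47 in Δ35–42. In pho92Δ TIP1 had 731, 632 and 669 CPM, against 539, 369 and 405 CPM in WT. All pho92Δ libraries were above all WT libraries.

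From high to low, the group means of TIP1 were in the order W177A, pho92Δ, Δ35–42, L38P, WT, L35A, I39A and CUP1-PHO92. Neighbours in this order overlapped in their libraries except L35A and I39A. Tests were open to TIP1 only among groups that had not been used to choose it. L38P was higher than I39A, with 449 ± 85.8 CPM in L38P against 245 ± 57.4 CPM in I39A (SD, n = 3 each; log2 fold change 0.88, SE 0.23, adjusted p 0.00393 in edgeR's quasi-likelihood test). That call was kept under all 12 alternatives run. L38P against L35A (0.23, adjusted p 0.41) and L35A against I39A (0.65, adjusted p 0.223) were not past the threshold of 0.05. For pho92Δ against WT the log2 fold change was 0.63 (SE 0.22) at an adjusted p of 0.057, just outside the threshold. It was inside with the replicate number as a block (0.0232), with a batch term (0.0465), with only the 6 libraries compared (0.0483), with DESeq2 (0.0321) and without replicate 1 of WT (0.0339). The other 7 of 12 alternatives left it outside, with adjusted p of 0.061 under RLE scaling, 0.0502 with no filter, 0.245 and 0.148 without replicates 2 and 3 of WT, and 0.158, 0.088 and 0.118 without replicates 1, 2 and 3 of pho92Δ.

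PST1 was likewise highest in pho92Δ and W177A, but the segment deletion did not share that level. PST1 had 463, 442 and 453 CPM in Δ35–42, against 863, 654 and 779 CPM in pho92Δ. The 2 groups did not overlap, and the log2 fold change of -0.76 (SE 0.12) is a description because it chose the gene. W177A had 712, 545 and 617 CPM, against 462, 437 and 427 CPM in CUP1-PHO92, a log2 fold change of 0.50 that is also given without a test. WT, at 528, 485 and 551 CPM, lay below every pho92Δ library. For TIP1 the order of the strains differed: its Δ35–42 libraries (674, 513 and 480 CPM) overlapped those of pho92Δ (731, 632 and 669 CPM), with a log2 fold change of -0.29.

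Among the strains open to a test, PST1 was lowest in L38P, whose 3 libraries were close together at 356, 349 and 365 CPM. L38P was lower than CUP1-PHO92 (log2 fold change -0.31, SE 0.12, adjusted p 0.0437), with every library below those of CUP1-PHO92. This call was near the threshold and was lost in 8 of 12 alternatives, with adjusted p from 0.0568 to 0.117 when any 1 of the 6 libraries was left out and the same direction. L35A had 430, 376 and 396 CPM and I39A 504, 351 and 410 CPM, and neither passed the test against CUP1-PHO92 (log2 fold changes of -0.14 and -0.07, adjusted p 0.416 and 0.85). L38P against I39A gave -0.24 (adjusted p 0.106), and -0.35 without replicate 2 of I39A (adjusted p 0.0336). CUP1-PHO92 against WT gave -0.24 (adjusted p 0.235), with all CUP1-PHO92 libraries lower. Over the 8 groups the order of means was pho92Δ, W177A, WT, Δ35–42, CUP1-PHO92, I39A, L35A and L38P, in which only WT and Δ35–42, and L35A and L38P, were neighbours whose libraries did not overlap.

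**Figure D2:**
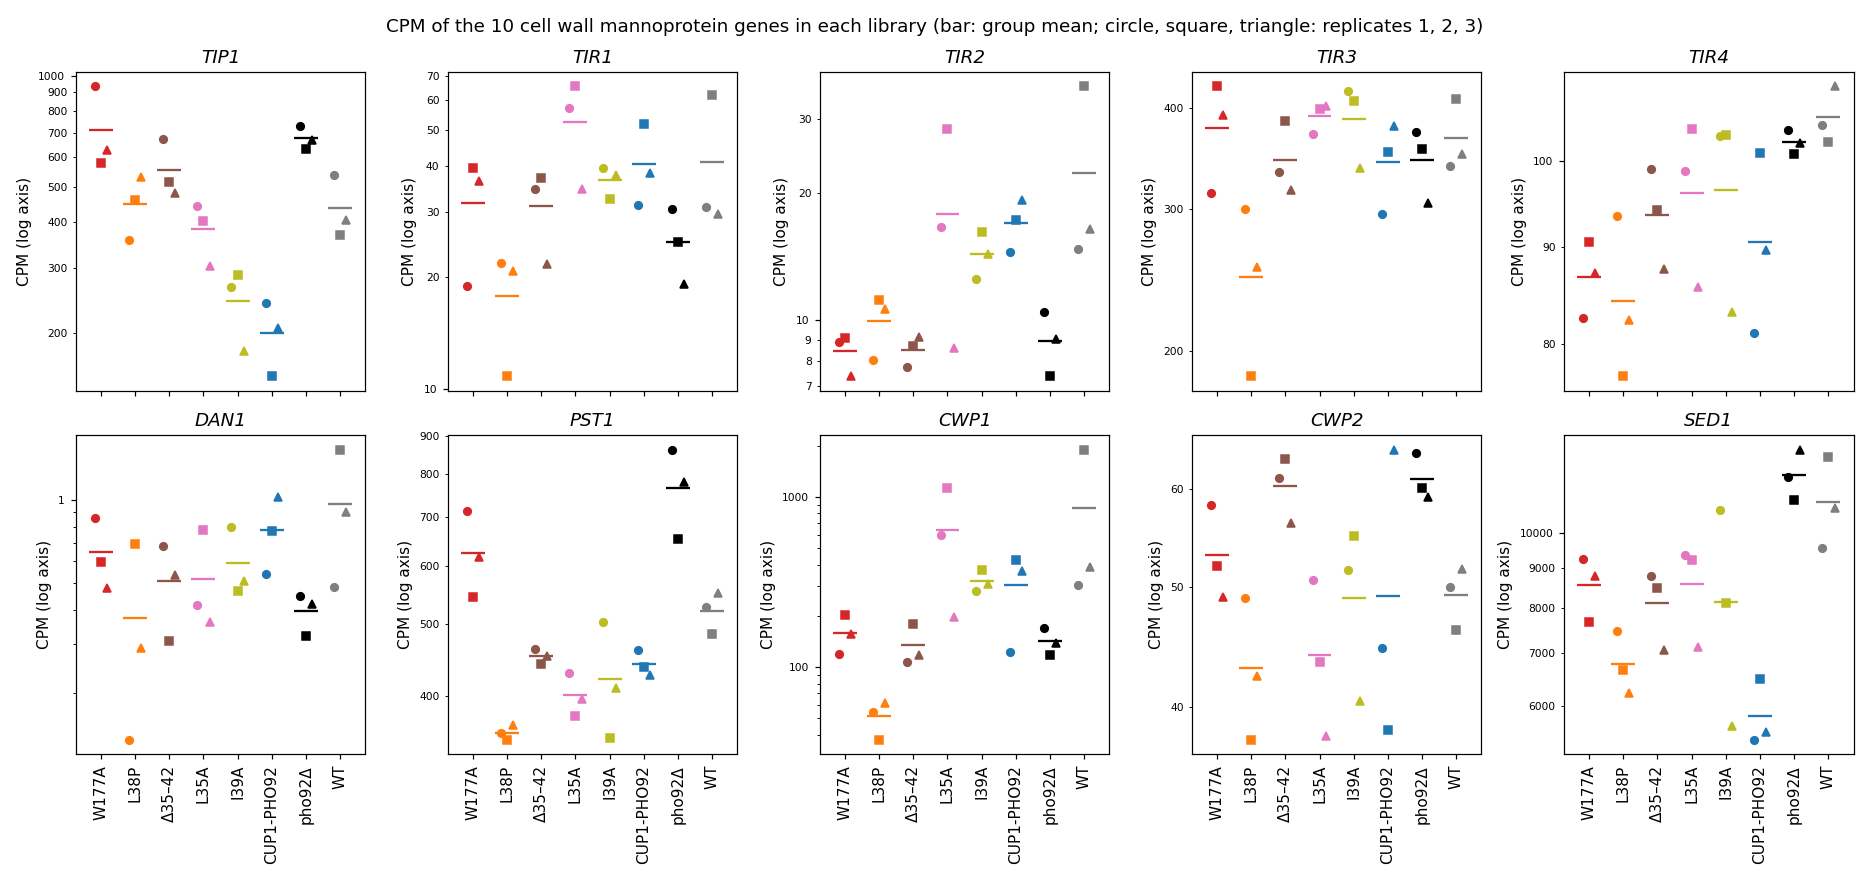
CPM (log axis, its own range in each panel) of each of the 10 genes in the 24 libraries, with a bar at each group mean and circles, squares and triangles for replicates 1, 2 and 3. TIP1 and PST1 are high in W177A and pho92Δ, whereas CWP1 and TIR2 are low in L38P, Δ35–42, W177A and pho92Δ and reach their highest values in replicate 2 of WT.

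CWP1 had the largest differences of the 10. It had 54.7, 37.5 and 61.8 CPM in L38P, against 123, 427 and 365 CPM in CUP1-PHO92. All L38P libraries lay below all others of the series. The log2 fold change was -2.57 (SE 0.62, adjusted p 0.00254). L35A had 597, 1123 and 197 CPM and I39A had 281, 373 and 306 CPM, and L38P was lower than both, by -3.64 against L35A (SE 0.65, adjusted p 0.000138) and by -2.64 against I39A (SE 0.62, adjusted p 0.00207). These 3 calls were kept under all 12 alternatives each. L35A and I39A did not pass the test against CUP1-PHO92 (log2 fold changes of 1.07 and 0.07, adjusted p 0.196 and 0.976).

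CWP1 was also lower in pho92Δ, at 169, 117 and 138 CPM, against 303, 1897 and 385 CPM in WT (log2 fold change -2.61, SE 0.62, adjusted p 0.00788). Replicate 2 of WT stood apart from the other WT libraries, and without replicate 2 of WT the log2 fold change was -1.25 and the call was lost (adjusted p 0.165). It was also lost when only the 6 libraries of the comparison were fitted (adjusted p 0.0699). Δ35–42 had 107, 179 and 117 CPM and W177A 120, 202 and 156 CPM, both overlapping pho92Δ. Against CUP1-PHO92 the Δ35–42 difference was -1.18 (adjusted p 0.153), and that of W177A, given without a test, was -0.94. From high to low the group means were in the order WT, L35A, I39A, CUP1-PHO92, W177A, pho92Δ, Δ35–42 and L38P, and only the last 2 neighbours did not overlap.

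The libraries with most CWP1 were also those with most middle meiotic transcripts. Over the 24 libraries the log2 level of CWP1 and that of the 12 summed middle meiotic markers had a Pearson r of 0.957, and of 0.872 after each group's mean was removed. For TIR1 the values were 0.913 and 0.869, for TIR3 0.786 and 0.771, and for TIR2 0.731 and 0.561. TIP1 (-0.484 and -0.431) and PST1 (-0.143 and -0.478) had negative values. TIR4 had 0.538 and 0.556. With the summed early meiotic markers TIR3 had an r of 0.846 over the 24 libraries, CWP1 0.695 and TIR1 0.73. These are descriptions, since the gene and the markers of each point come from the same library and its scaling, and libraries of 1 group share a strain. In pho92Δ against WT all 12 middle meiotic markers fell, in L38P 11 of 12 fell against CUP1-PHO92, 12 of 12 against L35A and 11 of 12 against I39A, and in L38P all 12 early markers fell in each of these 3 comparisons. The part of these transcripts' shift in the CWP1 and TIR results was not tested.

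**Figure D3:**
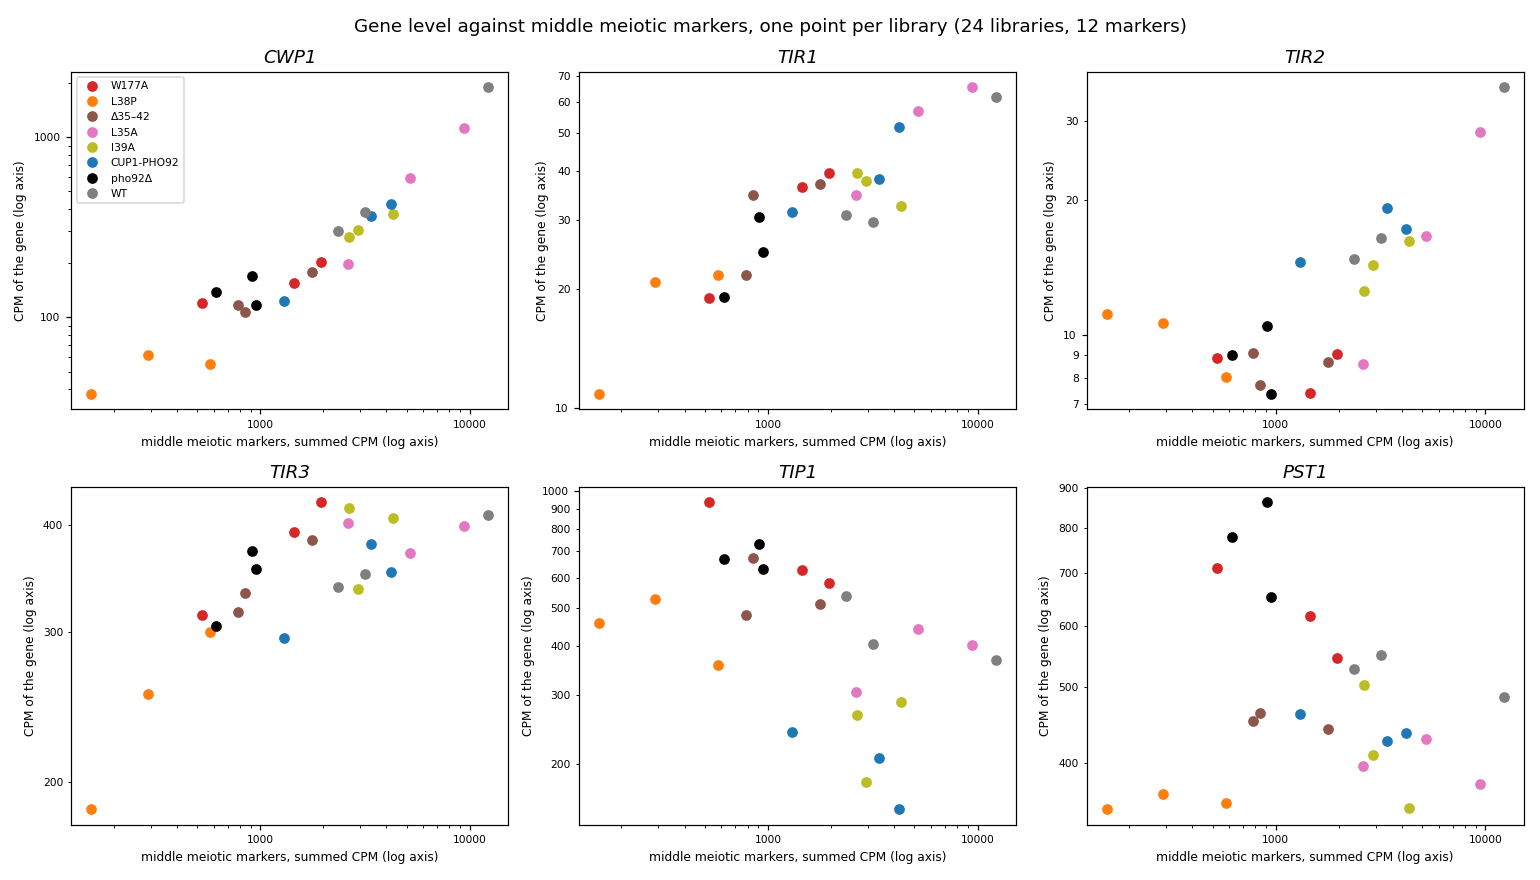
CPM of CWP1, TIR1, TIR2, TIR3, TIP1 and PST1 against the summed CPM of 12 middle meiotic markers (both axes logarithmic), one point per library coloured by group. CWP1 and TIR1 climb with the markers across and within groups (r = 0.957 and 0.913 over 24 libraries), TIR3 and TIR2 less tightly, and TIP1 and PST1 do not.

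TIR1 followed CWP1 on a smaller scale. It had 21.8, 10.8 and 20.9 CPM in L38P, against 31.4, 51.9 and 38.2 CPM in CUP1-PHO92. Every L38P library was lower (log2 fold change -1.19, SE 0.34, adjusted p 0.00885). TIR1 was also lower in L38P than in L35A, which had 57.1, 65.5 and 34.7 CPM (-1.56, SE 0.34, adjusted p 0.000905), and than in I39A, which had 39.5, 32.5 and 37.9 CPM (-1.04, SE 0.34, adjusted p 0.0174). Replicate 2 of L38P, a batch B library, was the lowest of the 24. Without it the values were -0.93 against CUP1-PHO92 (adjusted p 0.0604) and -0.78 against I39A (adjusted p 0.101), both past the threshold no longer, while the call against L35A was kept under all 12 alternatives. The call against CUP1-PHO92 was also lost without replicate 2 of CUP1-PHO92 (-0.97, adjusted p 0.0522). In pho92Δ TIR1 had 30.6, 24.9 and 19.2 CPM, against 30.99, 61.96 and 29.7 CPM in WT, and did not pass (-0.71, adjusted p 0.157).

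TIR3 had a higher level per kilobase than TIR1 and smaller differences. L38P had 299.8, 186 and 254 CPM of TIR3, against 371, 399 and 402 CPM in L35A and 419, 408 and 337 CPM in I39A. All L38P libraries were lower than all of either group. The log2 fold changes were -0.66 against L35A (SE 0.15, adjusted p 0.00127) and -0.655 against I39A (SE 0.15, adjusted p 0.00198), both kept under all 12 alternatives. Against CUP1-PHO92, at 295, 353 and 380 CPM, the groups overlapped and the value was -0.475 (SE 0.15, adjusted p 0.017). That call was lost without replicate 2 of L38P (-0.31, adjusted p 0.118), without replicate 2 (-0.46, adjusted p 0.0513) or 3 (-0.40, adjusted p 0.0688) of CUP1-PHO92, and with only the 6 libraries compared. In the other groups TIR3 lay between 305 and 425 CPM, and it passed no other test.

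TIR2, like CWP1 and TIR1, had its 4 lowest group means in W177A, L38P, Δ35–42 and pho92Δ, the 4 groups that were also lowest in middle meiotic markers. It had 10.4, 7.36 and 9.02 CPM in pho92Δ, against 14.8, 35.8 and 16.5 CPM in WT. No pho92Δ library reached the WT range (log2 fold change -1.315, SE 0.33, adjusted p 0.0104). The call was lost without replicate 2 of WT (-0.77, adjusted p 0.166), without replicate 2 of pho92Δ (-1.19, adjusted p 0.057), and with only the 6 libraries compared (adjusted p 0.0711). CUP1-PHO92 had 14.5, 17.2 and 19.2 CPM, all above pho92Δ (0.92, SE 0.33, adjusted p 0.0362). Δ35–42 had 7.74, 8.71 and 9.12 CPM, all below CUP1-PHO92 (-0.995, SE 0.33, adjusted p 0.0366). W177A, at 8.86, 9.07 and 7.39 CPM, was as low, with a log2 fold change against CUP1-PHO92 of -1.01 that is given without a test.

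At these levels the TIR2 calls depended on single libraries. For CUP1-PHO92 against pho92Δ the call was lost without replicate 2 (0.91, adjusted p 0.0768) or 3 (0.83, adjusted p 0.103) of CUP1-PHO92, and without replicate 2 (0.78, adjusted p 0.136) or 3 (0.93, adjusted p 0.0933) of pho92Δ. For Δ35–42 against CUP1-PHO92 it was lost in 5 of the 6 fits that leave out 1 library, all but the one without replicate 1 of CUP1-PHO92, with log2 fold changes of -1.05 to -0.90 and adjusted p of 0.0639 to 0.113. L38P, at 8.06, 11.1 and 10.6 CPM, was lower than L35A, at 16.6, 28.4 and 8.59 CPM (-0.84, SE 0.33, adjusted p 0.0362), but the groups overlapped, and without replicate 2 of L35A the value was -0.34 (adjusted p 0.393). Leaving out any 1 of 4 other libraries (L35A replicate 1 or any L38P library) also lost this call, with log2 fold changes of -0.93 to -0.71. L38P was not past the threshold against CUP1-PHO92 (-0.77, adjusted p 0.0615), where all L38P libraries were lower, nor against I39A (-0.53, adjusted p 0.192), where all were lower too. With only the 6 libraries compared both were past it (adjusted p 0.0119 against CUP1-PHO92 and 0.0493 against I39A), and the difference from CUP1-PHO92 also was with the replicate block (0.0355) and with DESeq2 (0.0383). I39A had 12.5, 16.2 and 14.3 CPM and overlapped CUP1-PHO92. In the order of group means of TIR2 (WT, L35A, CUP1-PHO92, I39A, L38P, pho92Δ, Δ35–42, W177A), the only neighbours that did not overlap were I39A and L38P.

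SED1, the most abundant of the 10, was lowest in CUP1-PHO92. Its level there was 5429, 6496 and 5560 CPM, against 11790, 11020 and 12780 CPM in pho92Δ and 9549, 12510 and 10770 CPM in WT. All CUP1-PHO92 libraries were below all libraries of both groups. The log2 fold change was -1.025 against pho92Δ (SE 0.18, adjusted p 0.00025), kept under all 12 alternatives, and -0.91 against WT (SE 0.18, adjusted p 0.00411), lost only with the 6 libraries compared (adjusted p 0.0644). SED1 did not differ past the threshold between pho92Δ and WT (0.12, adjusted p 0.691).

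The mean of SED1 in each mutant lay between that of CUP1-PHO92 and those of pho92Δ and WT. L35A had 9371, 9234 and 7140 CPM, all above CUP1-PHO92 (0.56, SE 0.18, adjusted p 0.029). That call was lost without replicate 1 (0.51, adjusted p 0.0949) or 3 (0.525, adjusted p 0.101) of CUP1-PHO92 and without replicate 1 (0.51, adjusted p 0.113) or 2 (0.52, adjusted p 0.0928) of L35A. Δ35–42 had 8787, 8496 and 7065 CPM, with a log2 fold change against CUP1-PHO92 of 0.48 (adjusted p 0.0576). Same-numbered libraries of these 2 groups deviated together (r of 0.529, 0.209 and 0.224 across genes), though the labels do not state a pairing. With the number as a block the log2 fold change was 0.47 (adjusted p 0.0396). W177A had 9239, 7682 and 8806 CPM, against 5429, 6496 and 5560 CPM in CUP1-PHO92 (0.56, no test), and fell short of the threshold against pho92Δ (-0.47, adjusted p 0.216). I39A ran from 5651 to 10680 CPM, the widest spread of any group, and L38P had 7475, 6673 and 6232 CPM. Neither passed against CUP1-PHO92 (0.48 and 0.22, adjusted p 0.284 and 0.322). L38P passed as lower in SED1 without replicate 3 of L35A (-0.455 against L35A, adjusted p 0.0489) or of I39A (-0.47 against I39A, adjusted p 0.0285).

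TIR4, CWP2 and DAN1 passed no test in the fit of one mean per group to all 24 libraries. TIR4 ran from 76.9 to 109.5 CPM over the 24 libraries. WT had the highest mean (105 ± 3.69 CPM) and L38P the lowest (84.3 ± 8.46 CPM; SD, n = 3 each). CWP2 ran from 37.7 to 64.6 CPM. Its pho92Δ libraries (64.2, 60.15 and 59.1 CPM) were all above those of WT (50.05, 46.2 and 51.7 CPM), at a log2 fold change of 0.31 and an adjusted p of 0.184. DAN1 had 0.397 ± 0.0663 CPM in pho92Δ, against 0.968 ± 0.521 CPM in WT (SD, n = 3 each; -1.24, SE 0.49, adjusted p 0.0867), which rests on a few counts per library. With a batch term, DAN1 was past the threshold at -1.24 in pho92Δ against WT (adjusted p 0.0473) and at -1.52 in L38P against CUP1-PHO92 (adjusted p 0.0211). Leaving out 1 library also brought some differences of these 3 genes past it. Without replicate 3 of CUP1-PHO92, which stood above the other 2 for CWP2, that gene was at -0.56 in CUP1-PHO92 against pho92Δ (adjusted p 0.00785) and at 0.54 in Δ35–42 against CUP1-PHO92 (adjusted p 0.0182). DAN1 was at -1.57 in pho92Δ against WT without replicate 1 of WT (adjusted p 0.0364) and at -1.83 in L38P against CUP1-PHO92 without replicate 2 of L38P (adjusted p 0.0203). TIR4 was lower in L38P without replicate 1 of L38P, at -0.27 against L35A (adjusted p 0.0389) and -0.28 against I39A (adjusted p 0.0392), and likewise without replicate 3 of L35A (-0.27, adjusted p 0.0416) or of I39A (-0.29, adjusted p 0.0277).

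The counts of members called stand here beside the share of all features called by the same rule. In pho92Δ against WT, 2 of the 9 members with a test were called, both lower, where 17.7% of 5698 features were called. Without replicate 2 of WT, 0 members and 213 features were called there (1006 features with it), and without replicate 1 of WT 4 members and 1095 features. In CUP1-PHO92 against WT, 1 of 9 was called, as lower (background 6.93%). In CUP1-PHO92 against pho92Δ, 1 of 8 was higher and 1 lower (background 34.6%). Against CUP1-PHO92, 1 of 8 was lower in Δ35–42 (21.8%), 1 of 9 higher in L35A (22.6%), and 4 of 9 lower in L38P (44%). L38P against L35A gave 4 of 10 lower (54.4%), and L38P against I39A gave 1 of 10 higher and 3 lower (47.3%). The share among members was thus near or below the background in the comparisons with L38P, and with so few members the counts are a description.

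Members whose libraries did not overlap between groups were counted in the same way, with no test and with the genes behind the choice included. In pho92Δ against WT 3 were higher and 3 lower, where the libraries of 39.2% of all features did not overlap. In CUP1-PHO92, 0 were higher and 4 lower against WT (25.6%), and 3 higher and 3 lower against pho92Δ (54.8%). Against CUP1-PHO92, 2 were higher and 1 lower in Δ35–42 (38.3%), 2 higher and 0 lower in L35A (38.9%), 1 higher and 4 lower in L38P (50.7%), none in I39A (20.2%), and 3 higher and 1 lower in W177A (43.2%). Against pho92Δ, 0 were higher and 3 lower in Δ35–42 (18.2%), and 1 higher and 3 lower in W177A (23.3%). That 1 was DAN1, which had only 3 to 31 counts per library. DAN1 was also 1 of the 3 lower in pho92Δ against WT and 1 of the 3 higher in CUP1-PHO92 against pho92Δ. L38P had 0 higher and 4 lower against L35A (57%) and 1 higher and 4 lower against I39A (53.3%), and L35A had 1 higher against I39A (17.8%).

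No member was called in edgeR's test in 3 comparisons. In I39A against CUP1-PHO92, 0 of 9 passed, 1 had an unadjusted p under 0.05, DESeq2 called 0, and 0.0527% of all features were called (3 features, or 6 with the replicate number as a block). In W177A against pho92Δ, 0 of 8 passed, 2 had an unadjusted p under 0.05 (TIR4 and SED1, both lower), DESeq2 called 0, and the background was 1.35% (77 features, or 158 with the replicate number as a block). In L35A against I39A, 0 of 10 passed, 1 (TIP1) had an unadjusted p under 0.05, DESeq2 called 0, and the background was 0.632%. The 2 comparisons behind the choice of genes had backgrounds of 27.9% (W177A against CUP1-PHO92) and 0.105% (Δ35–42 against pho92Δ), from which nothing is read about the members.

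The median log2 fold change of the 10 genes was -0.39 in L38P against CUP1-PHO92, against 0.04 over all features. It was -0.355 against L35A (0.03 over all features) and -0.39 against I39A (0.03). In CUP1-PHO92 against WT all 10 log2 fold changes were below 0, with a median of -0.26 against -0.01 over all features. They ran from -1.50 (CWP1, not past the threshold) to -0.003 (CWP2), with TIR1 at -0.01. Only SED1 was called there, and TIP1, at -1.13, was chosen partly on the CUP1-PHO92 libraries. In the other 9 comparisons the median of the 10 lay between -0.09 and 0.14. Several comparisons share CUP1-PHO92, pho92Δ or L38P libraries, so their values are not independent of each other.

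**Figure D4:**
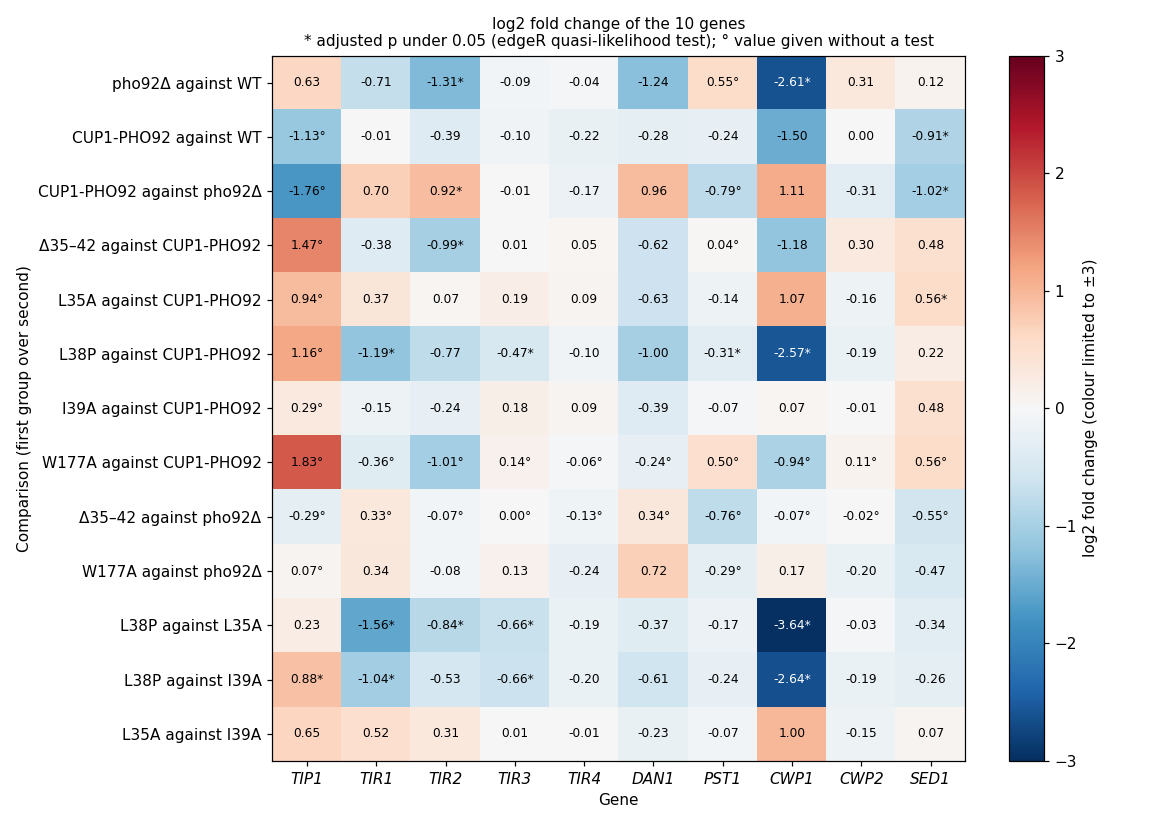
Log2 fold change of the 10 genes in 13 comparisons, first-named group over second, with an asterisk where the adjusted p was under 0.05 and a circle where no test was made. L38P comparisons are negative for CWP1, TIR1 and TIR3, CUP1-PHO92 is negative for SED1 against pho92Δ and WT, and TIP1 is positive in W177A, Δ35–42, L38P and L35A against CUP1-PHO92.

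Other wall genes were counted from lists, chosen like the members with results of these data known. Their counts are set beside the share of all features called, and nothing particular to a list is read from them. Of 30 other cell wall protein genes, 8 rose and 2 fell in pho92Δ against WT (17.7% of all features called), with a median log2 fold change of 0.25 against 0.003 over all features. The 2 that fell were SPS2 (log2 fold change -3.89, adjusted p 0.00777) and SPS22 (-3.10, adjusted p 0.00467), relatives of PST1 that act in spore wall formation. SPS2 had 80.6 ± 29.2 CPM in pho92Δ, against 1194 ± 1240 CPM in WT, and SPS22 had 55.8 ± 14.7 CPM in pho92Δ, against 478 ± 464 CPM in WT (SD, n = 3 each). The SD in WT was about as large as the mean for both genes, and replicate 2 of WT stood apart in the middle meiotic markers. Its part in these falls was not tested. YPS3, a GPI-anchored protease of the wall, rose to 49.3 ± 8.45 CPM in pho92Δ, against 20.5 ± 2.67 CPM in WT (SD, n = 3 each; 1.26, adjusted p 7.31e-05). In CUP1-PHO92 against pho92Δ 2 rose and 14 fell (background 34.6%): SPS2 (2.99) and SPS22 (2.12) rose and YPS3 fell by 1.26. In L38P against CUP1-PHO92 11 rose and 4 fell (background 44%), among them SPS2 at -4.70 and SPS22 at -3.30. Their levels in L38P were 24.8 ± 23.9 and 24.7 ± 13.7 CPM, against 639 ± 360 and 242 ± 103 CPM in CUP1-PHO92 (SD, n = 3 each). Against CUP1-PHO92, 10 rose and 0 fell in Δ35–42 (21.8%), 5 rose and 2 fell in L35A (22.6%), and 5 rose and 0 fell in W177A (27.9%). In W177A YPS3 had 59.2 ± 5.73 CPM, against 20.6 ± 0.359 CPM in CUP1-PHO92 (SD, n = 3 each; 1.525, adjusted p 4.95e-06), and GAS3, of a family of wall glucan-remodelling enzymes, rose by 0.84. The risers in both Δ35–42 and L35A included the wall protease YPS1 (1.05 and 0.83) and the iron-binding mannoprotein FIT3 (1.145 and 0.94).

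The cell wall integrity pathway relays wall damage from membrane sensors to Pkc1, a MAP kinase cascade and the factor Rlm1. Of its 20 genes, 1 rose and 0 fell in pho92Δ against WT (17.7% of all features called), the sensor gene WSC3 at 0.35. In CUP1-PHO92 against pho92Δ 0 rose and 5 fell (34.6%), among them the sensor SLG1 (-0.48) and the glucan synthase FKS1 (-0.46). Against CUP1-PHO92, 4 rose in each of Δ35–42, L35A and W177A and none fell. Of all features, 21.8%, 22.6% and 27.9% were called in either direction. Those called higher were 677, 642 and 847 of 5698. The share of the list called was below the first background, which pools both directions, and does not bear on rises alone. The Rho1 exchange factor ROM2 was among the named risers in each (0.41 in Δ35–42, 0.55 in L35A and 0.48 in W177A). In L38P (44%) 1 fell, the sensor MID2 (-0.48), and 2 rose, the kinase MKK2 (0.46) and SLG1 (0.34). L38P had 1 higher and 7 lower against L35A (54.4%), and 1 higher and 6 lower against I39A (47.3%). SWI4 was among the lower in both (-0.86 against L35A and -0.72 against I39A). The median log2 fold change of the 20 genes stayed between -0.21 and 0.19 in all 13 comparisons.

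Regulators of anaerobic wall genes include the repressors Mot3 and Cyc8-Tup1 and the sterol-linked factors Ecm22 and Sut1. Of 11 genes, 2 rose (MOT3 at 0.46 and HAP1 at 0.31) and 1 fell (CYC8 at -0.52) in pho92Δ against WT, where 17.7% of all features were called. In CUP1-PHO92 against pho92Δ 0 rose and 4 fell (34.6%), among them ECM22 (-0.43). In CUP1-PHO92 against WT 0 rose and 1 fell (6.93%), also ECM22 (-0.42). Against CUP1-PHO92, 2 rose in Δ35–42 (21.8%), 5 in L35A (22.6%) and 4 in W177A (27.9%), with none lower, and ECM22 was among them in each (0.58, 0.50 and 0.47). L38P had 4 higher and 1 lower (44%), with ECM22 among the higher there too (0.68). The 1 lower was SUT1, at 33.2 ± 7.95 CPM in L38P, against 89.7 ± 25.7 CPM in CUP1-PHO92 (SD, n = 3 each; -1.44, adjusted p 0.0169).

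The features whose log2 level ran most like that of TIP1 over the 24 libraries, among 5204 with a mean of at least 10 CPM, were DBR1 (r = 0.927), which encodes the lariat debranching enzyme, IDP3 (0.926), a peroxisomal isocitrate dehydrogenase, and ADH2 (0.915), an alcohol dehydrogenase of cells without glucose. For PST1 they were CCW14 (0.885), a wall glycoprotein, CKA2 (0.858), a catalytic subunit of casein kinase 2, and SUP45 (0.824), a translation release factor. Over the 8 group means the values were 0.965, 0.963 and 0.969 for the genes most like TIP1, and 0.96, 0.931 and 0.876 for those most like PST1. TIP1 and PST1 had r = 0.573 with each other. Within the 10, the closest pairs were CWP1 with TIR1 (0.858) and CWP1 with TIR2 (0.82), while TIR1 and TIR2, whose coding starts share 46 of 50 bases, had 0.592.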

How the data were processed

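Per the labels' protocols, libraries were made from polyadenylated RNA with a directional kit named there for degron strains and sequenced paired-end. The deposited table holds whole-number counts per annotated feature, with no normalization recorded. STAR 2.7.10a, RSEM 1.3.1 and DESeq2 1.48.1 are named in the submitters' processing notes, without their roles. The genome build, annotation and strand setting are not given in the sources used here, so whether RSEM estimates were rounded is unknown. Coordinates and sequences printed come from RefSeq R64 and not from the table. Of the 6157 features, 5620 matched an R64 locus tag.

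The members and gene lists were chosen with earlier results of these data known. Counts were analysed in R 4.3.3 with edgeR 4.0.16 and limma 3.58.1: TMM scaling, filterByExpr at its defaults (459 features removed), and a quasi-likelihood fit with one mean per group over all 24 libraries (16 residual degrees of freedom). The 13 comparisons were tested with glmQLFTest and adjusted by Benjamini-Hochberg over the 5698 features of each, with a threshold of 0.05. Log2 CPM used a prior count of 2. Single-value exact permutation tests were not used, since 3 libraries against 3 cannot give a p under 0.1. The fit was also run on simulated counts in which every gene had the same extra spread between libraries and no library stood apart. The libraries here are less even, so that run does not bear on the calls given. Floors of 3 counts cover counting error alone: with no molecular identifiers, several reads can come from 1 molecule.

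All 10 members are named. Of each other list, up to 3 genes past the threshold are named per comparison, those with the largest absolute log2 fold change at a mean of at least 10 CPM. The 3 features most like TIP1 and PST1 by Pearson's r are named too. Alternatives were RLE scaling, no filter, a replicate block, a batch term, only the 6 libraries compared, DESeq2 1.42.0 and leaving out each library. Same-numbered libraries were taken to deviate together where every pair's correlation across genes was over 0.1. That held in Δ35–42, L35A and I39A against CUP1-PHO92, W177A against pho92Δ and L35A against I39A (mean r 0.259 to 0.399). The other 8 comparisons did not meet this rule, but their mean r ran from -0.124 (L38P against L35A) to 0.367 (CUP1-PHO92 against WT). In Δ35–42 against pho92Δ it was 0.313. Promoter windows were cut from R64 by start codon (250 bases before, 50 after), in place of a promoter table planned for that use. Of 105 genes in all lists, members included, 102 were in the table.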

Additional observations from a re-analysis of the deposited data

How the results depend on the processing

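Member values were compared between fits only for genes with no test in a comparison or past the threshold there in at least 1 fit. Tested values past it in no fit were left out, so the counts are not over all member values. The fits differed in scaling, filter, block, batch term, set of libraries or tool. Of the values compared, 365 kept their direction and side of the threshold (or, without a test, moved by less than 1 SD). A further 7 lost the threshold, 16 gained it, 1 moved and 0 reversed. Fits that leave out 1 library are not in these counts and gave 390 more member values. Those fits lost further calls. The PST1 call in L38P against CUP1-PHO92 was lost in 6 of them, and the TIR2 call in Δ35–42 against CUP1-PHO92 in 5. The CWP1 call in L38P against CUP1-PHO92 was lost in 0. The cause of the changes was not tested. A fit of only the 6 libraries compared has fewer residual degrees of freedom, and what this did to the calls was not tested either. With those 6 libraries, features called were 424 in pho92Δ against WT (1006 in the fit over all 24), 11 in CUP1-PHO92 against WT (395), 853 in L35A against CUP1-PHO92 (1290), 2 in Δ35–42 against pho92Δ (6), 4 in W177A against pho92Δ (77) and 1 in L35A against I39A (36). In CUP1-PHO92 against pho92Δ the features called rose instead, to 2382 (1972 in the fit over all 24). Members called were 1 in pho92Δ against WT (2) and 0 in CUP1-PHO92 against WT (1). They were 4 in CUP1-PHO92 against pho92Δ (2) and 2 in Δ35–42 against CUP1-PHO92 (1). With the replicate number as a block, features called were 617 in CUP1-PHO92 against WT, 6 in I39A against CUP1-PHO92 (3), 39 in Δ35–42 against pho92Δ and 158 in W177A against pho92Δ, and members called were 2 in Δ35–42 against CUP1-PHO92. In the 5 comparisons whose same-numbered libraries deviated together, the block changed no other member call. Among the other comparisons, the block moved the members called from 2 to 3 in pho92Δ against WT. In L38P it moved them from 4 to 5 against CUP1-PHO92 and against I39A. With a batch term, 4 members were called in pho92Δ against WT, and features called were 27 in Δ35–42 against pho92Δ and 267 in W177A against pho92Δ. DESeq2 called 597 features in CUP1-PHO92 against WT, 32 in I39A against CUP1-PHO92, 89 in Δ35–42 against pho92Δ, 193 in W177A against pho92Δ and 103 in L35A against I39A, and 2 members in Δ35–42 against CUP1-PHO92. Without the filter, 12 features were called in L35A against I39A.

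Leaving out 1 library at a time gave 213 (without WT replicate 2) to 1095 features called in pho92Δ against WT, 147 to 361 in CUP1-PHO92 against WT, 1200 to 1655 in CUP1-PHO92 against pho92Δ, 728 to 1334 in Δ35–42, 707 to 1269 in L35A, 1003 to 1397 in W177A, 2 to 4 in I39A and 1753 to 2485 in L38P, each against CUP1-PHO92. It gave 2 to 14 in Δ35–42 and 3 (without W177A replicate 2) to 285 (without W177A replicate 1) in W177A, each against pho92Δ, 2529 to 3166 in L38P against L35A, 1913 to 2805 in L38P against I39A and 1 to 53 in L35A against I39A. Members called ranged from 0 to 4 in pho92Δ against WT, 1 to 2 in CUP1-PHO92 against pho92Δ, 0 to 1 in Δ35–42 and in L35A against CUP1-PHO92, 1 to 3 in L38P against CUP1-PHO92, 3 to 6 in L38P against L35A and 3 to 6 in L38P against I39A. They stayed at 1 in CUP1-PHO92 against WT and at 0 in the 3 comparisons without a call. DAN1 is limited by its 3 to 31 counts per library.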
